A study of Mus musculus with 34 samples.

Results

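CTCF binding was compared between unstimulated bone marrow-derived dendritic cells (BMDCs) with CTCF (WT) and after its deletion (KO), from 1 deposited CTCF ChIP-seq peak list for each. The members were the CTCF peaks of both lists, 60532 in WT and 20146 in KO, out of 1393623 peaks in the 30 peak lists of the whole series. Before counting, 5 peaks were left out of each list because they lay at places with a peak in all 26 lists other than those of p65, an NF-κB subunit. A WT peak was called kept when a KO peak shared at least 1 bp with it, and lost otherwise. A KO peak that shared no base with a WT peak was called KO-only.

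The cells came from C57BL/6 mice aged 8 weeks. WT cells carried CreER alone, a Cre recombinase that works only once tamoxifen is present, and KO cells carried CreER together with Ctcf fl/fl alleles. All bone marrow cultures received 4-OH tamoxifen on the first day and GM-CSF, the cytokine that drives dendritic cell differentiation, for 6 days, and CD11c+ cells were selected. CreER was expressed from Rosa26, a locus active in nearly all cell types, so deletion began in marrow precursors and was not limited to dendritic cells. Neither list was made after LPS stimulation. Lists of LPS-stimulated cells, used below for comparison, came from cells given 100 ng/ml LPS for 3 hours. Each condition had 1 list, and the sources describe both peak calling by replicate and merging of replicates without saying which gave it, so there was no replicate spread and no test between conditions. Intervals in parentheses are 95% Wilson intervals and cover counting error only. Coordinates are 1-based and in GRCm38 (mm10).

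CTCF is a zinc-finger protein that recognises a long DNA motif and is found at promoters, enhancers and the boundaries of chromatin domains. The cohesin ring, of which SMC1 is a subunit, extrudes chromatin loops and is commonly halted at CTCF sites. In dendritic cells and other cell types, this arrangement is known to bring some enhancers and promoters together and to keep others apart.

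Sequences of 6 named peaks are given as examples. Kept and lost examples were picked only among named peaks with a passing CTCF match. KO-only examples were picked outside repeats without regard to a match. The contrast between them was therefore set by the choice. Among all peaks, 28.0% of kept, 23.1% of lost and 0.277% of KO-only ones had a match. They are RefSeq GRCm38.p6 sequences, 5′ to 3′. At kept and lost peaks the capitals mark the best match to a CTCF matrix within 50 bp of the summit, and at KO-only peaks, where no match passed, the 30 bases around the summit are given without capitals.
Kept, near Sgf29 (chr7:126643430-126643459, plus strand): gcctgCAGCCCAGAAGAGGGCACCAgatcc
Kept, at Dazl (chr17:50291653-50291682, plus strand): agtccTTATCCAGTAGGTGGCACTCaaaac
Lost, at Slc39a8 (chr3:135886756-135886785, plus strand): caggaTTCACCACAAGATGGCGACAgccat
KO-only, near Ighv1-55 (chr12:115204151-115204180, plus strand): tatttgactattttaattgggtgttgaatt
KO-only, at Anln (chr9:22386886-22386915, plus strand): tctgaatgttatcactgagcacctagtctt
KO-only, at Pot1a (chr6:25808195-25808224, plus strand): gcagaggaggttcctctatatgtctttctc
The matrix was built around the seed CCA, 2 free bases, AG, 2 free bases, GGC, at the summits of the CTCF list of LPS-stimulated WT cells (WTLPS). It was searched on both strands with a threshold passed by 1% of windows 1 kb away from WT summits. The exact seed lay in 1.12% of those windows.

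The tissue label was checked against promoter histone marks, since the lists hold no RNA. An H3K4me3 peak, a mark of active or poised promoters, lay at 8 of 8 dendritic cell marker genes in WT and in KO. The same count was 3 of 5 for macrophage markers, 2 of 5 for erythroid markers and 1 of 5 each for T cell and B cell markers, and 0 of 5 each for neutrophil and for mast cell and basophil markers, in either genotype. Loss of the Ctcf exons cannot be read from peaks. At Ctcf (chromosome 8, start site 105636579) the WT promoter CTCF peak had a fold of 5.70 and no KO peak lay there, while H3K4me3 peaks were present in both.

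Most WT CTCF peaks had no counterpart in KO. Of the 60532 WT peaks, 46166 were lost (76.3%, 75.9 to 76.6%) and 14366 were kept (23.7%). Of the 20146 KO peaks, 4694 were KO-only (23.3%, 22.7 to 23.9%). The KO list had a lower background. Recovered from the deposited fold and p-value of each peak, the most frequent background was 2.95 fragments per base in KO and 3.74 in WT. The mapped CTCF reads given in the reporting summary were also fewer in KO, but by a smaller proportion. This background is therefore not a measure of depth alone. With WT thinned by the ratio of these backgrounds, 52733 WT peaks were expected to pass the KO threshold, and 38608 of these were lost peaks (73.2%). The limit of 1 bp decided few cases. The kept peaks that shared least with a KO peak shared 4 bp and had WT folds of 4.61 and 10.8, and the lost peak closest to a KO peak lay 5 bp away from it, with a fold of 4.22. Only 6 kept peaks shared 10 bp or less, and a KO peak lay within 1000 bp of 2813 lost peaks (6.09%). Fold here is the fragment pileup at the summit over the local background as deposited.

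The share of WT peaks with a listed KO counterpart rose with WT strength. WT peaks were divided into 10 equal groups by −log10 p. In groups 1 to 6 between 2.49 and 4.30% of peaks were kept, and the share rose through 12.3%, 39.2% and 72.3% to 94.6% (94.0 to 95.1%) in group 10. Of the 1000 strongest WT peaks, 998 were kept. A KO peak had to reach a −log10 p of 7 to be listed, so weak WT peaks could fall under this limit with a smaller drop than strong ones. Wider peaks also share a base more easily, and the median width rose from 316 bp in group 1 to 1769 bp in group 10. The part of these limits in the trend was not tested, so it does not show that strong sites resisted the loss of CTCF. In groups 1 to 9, peaks at promoters (within 2.5 kb of the start of a gene's longest transcript) were kept more often than other peaks. In group 1 the shares were 13.5% (11.6 to 15.7%) at promoters and 1.59% (1.27 to 1.97%) elsewhere, in group 7 they were 20.4% and 9.85%, in group 8 they were 52.7% and 34.9%, and in group 10 they were 95.7% (94.4 to 96.7%) and 94.3% (93.6 to 94.9%), with intervals that overlapped. In group 1, 28.5% of peaks with a WT H3K4me3 peak were kept and 1.56% of those without, and in group 8 the shares were 64.3% and 33.9%. Few of the weak kept peaks had a CTCF match. In group 1, 0.482% of peaks with a match were kept (4 of 830), against 4.21% of those without (220 of 5223). In group 8 the shares were 38.0% and 39.6%. In group 8, 40.1% (38.8 to 41.4%) of peaks with SMC1 were kept and 30.3% (26.7 to 34.2%) of those without, and 28.2% of peaks with a soft-masked summit against 42.6% of the others. In group 9 the shares were 72.8% with SMC1 and 60% without, and 61.6% in soft-masked sequence and 74.5% outside it.

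**Figure D1:**
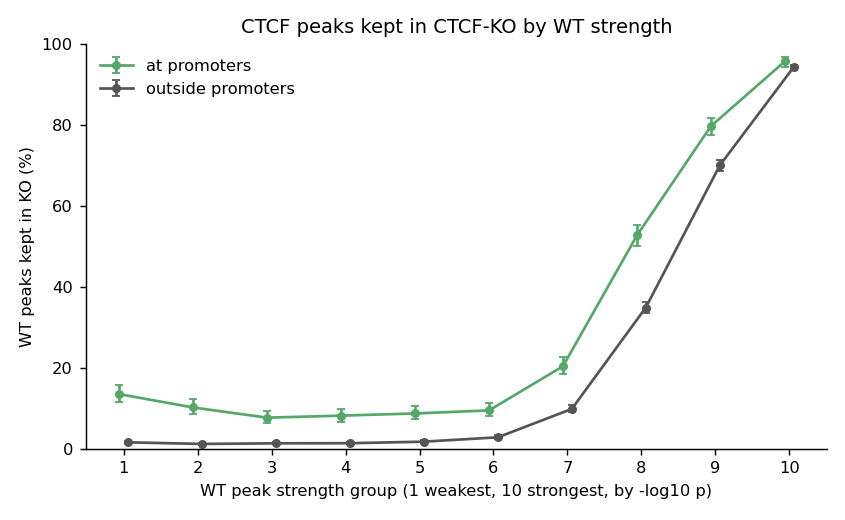
Percentage of WT CTCF peaks kept in KO (vertical axis) in 10 equal groups of WT peaks ordered by −log10 p (horizontal axis), for peaks at promoters and outside promoters; bars are 95% Wilson intervals. The share stays below 15% up to group 6 and passes 90% in group 10, and promoter peaks lie above the others in groups 1 to 9.

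Kept peaks were weaker and narrower in KO. The median fold was 20.5 in WT and 6.42 at the KO partner peaks, with a median ratio of KO to WT fold of 0.348 (quartiles 0.269 and 0.468). The KO fold was lower at 13733 of 14366 kept peaks (95.6%). The median width was 1443 bp in WT and 462 bp in KO, and the summits lay a median of 40 bp apart, within 150 bp of each other at 89.4% of kept peaks. The ratio fell with WT strength, from a median of 1.33 in group 1 to 0.900 in group 4, 0.453 in group 7 and 0.298 in group 10. A KO peak had to reach a −log10 p of 7 to be listed, so a low ratio could not be observed at a weak WT peak. The KO fold was higher at 391 of 3979 kept promoter peaks and at 242 of 10387 kept peaks outside promoters.

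**Figure D2:**
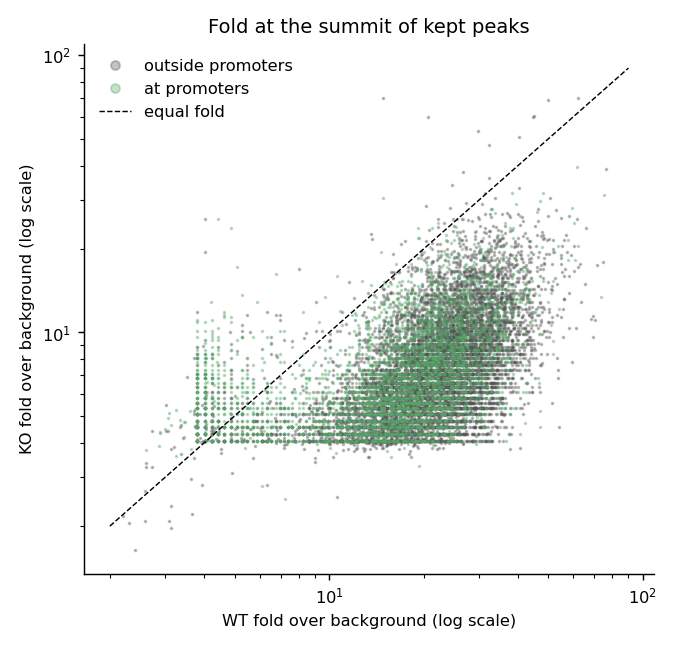
Fold over background at the summit of each kept peak in WT (horizontal axis, log scale) and of its KO partner peak (vertical axis, log scale), for peaks at promoters and outside promoters; the dashed line marks equal folds. Most of the 14366 points lie under the line (95.6%), and those above it are mainly peaks of low WT fold.

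Some of the strongest kept peaks lay at places where lists of many antibodies had peaks. The 5 strongest kept peaks at promoters of protein-coding genes all lay on chromosome 9 between 3000299 and 3024656, at Gm10722, Gm11168, Gm10717 and Gm10718, with a peak in 23 to 25 of the 26 lists and KO folds above the WT folds. The strongest kept peak outside promoters lay on chromosome Y (90797007 to 90811834), with folds of 76.2 in WT and 38.8 in KO and a peak in 22 lists. Leaving out places with a peak in 22 lists or more, a choice made after these values were seen, the strongest kept promoter peak lay at C1qtnf9, which encodes a secreted C1q-related protein (chromosome 14, 60769435 to 60772282, in an intron). Its fold was 75.3 in WT and 31.4 in KO. At Gins4, which encodes a subunit of the replicative helicase complex, the folds were 60.6 and 18.2, and at the kinesin gene Kif26b they were 60.2 and 24.8. The other kept promoter peaks of this choice lay at Gm21738 (3.62 and 3.80) and Gm5134 (57.6 and 21.5).

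Among the 1000 strongest WT peaks that were kept, the ratio of KO to WT fold ran from 0.0843 to 1.72, with a median of 0.291. The lowest ratios were found near Sgf29, which encodes a subunit of the SAGA acetyltransferase complex (54.0 in WT, 4.56 in KO), near Gm48695 (40.7 and 3.84) and at Dazl, a germ cell RNA-binding protein gene (47.1 and 4.56). The matches printed above for Sgf29 and Dazl came from these peaks. The highest ratio, 1.72, was at a place on chromosome 19 (61265099 to 61267154), and the next 4 lay on chromosome 9 between 3004555 and 3035282.

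The strongest lost peaks had folds that most kept peaks did not reach. At promoters, they lay at Hspa1b, which encodes an inducible heat shock protein with a near-identical neighbouring copy (chromosome 17, 34955755 to 34957012, fold 32.9), Ttc5 (chromosome 14, fold 29.1), Itln1, a lectin gene (chromosome 1, fold 28.1), Slc39a8, which encodes a zinc transporter (chromosome 3, 135885028 to 135887347, fold 27.4), and Cep170b (chromosome 12, fold 21.8). Each of these 5 peaks shared bases with a WT SMC1 peak and none with a KO SMC1 peak. Slc39a8 carried the CTCF match shown above, in a non-coding exon. Outside promoters the strongest lost peaks lay on chromosome 6 (103739199 to 103740279, fold 36.9), chromosome 3 (7330852 to 7333576, fold 36.3) and chromosome 7 (62399518 to 62401164, fold 34.6), in each case with WT SMC1 and without KO SMC1. CTCF peaks of WTLPS, the LPS-stimulated WT cells, lay at all 8 of these places, and CTCF peaks of LPS-stimulated KO cells lay at 3 of them, namely Slc39a8 and the places on chromosomes 3 and 7 outside promoters, against 0.947% of all lost peaks.

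Over all strengths, cohesin was more frequent at kept than at lost peaks. SMC1 peaks in WT lay at 91.3% (90.9 to 91.8%) of kept peaks, at 42.8% (42.3 to 43.2%) of lost peaks and at 9.03% (8.25 to 9.89%) of KO-only peaks. At like WT strength the kept and lost peaks were closer: SMC1 lay at 42.6% (35.7 to 49.7%) and 42% (40.7 to 43.2%) in group 5, at 92.5% and 88.9% in group 8 and at 96.9% (96.4 to 97.4%) and 94.6% (93.4 to 95.6%) in group 9. In KO, SMC1 lay at 23.9% of kept, 4.86% of lost and 11.5% of KO-only peaks. Of the CTCF peaks with WT SMC1, 25.7% (24.9 to 26.4%) of the kept and 9.96% (9.55 to 10.4%) of the lost ones also had KO SMC1. The cohesin signal was retained more often where WT H3K27ac, a mark of active enhancers and promoters, was present: 54.4% against 18.9% at kept peaks and 37.0% against 4.33% at lost peaks. The SMC1 list held 63638 peaks in WT and 29965 in KO. The CTCF lists after LPS were separate lists that the classes did not use. A WTLPS CTCF peak lay at 97.8% of kept and 73.6% of lost peaks, but at 6.90% of KO-only peaks. A CTCF peak of LPS-stimulated KO cells (KOLPS) lay at 62.5% (61.7 to 63.3%) of kept, 0.947% (0.862 to 1.04%) of lost and 20.2% (19 to 21.3%) of KO-only peaks.

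**Figure D3:**
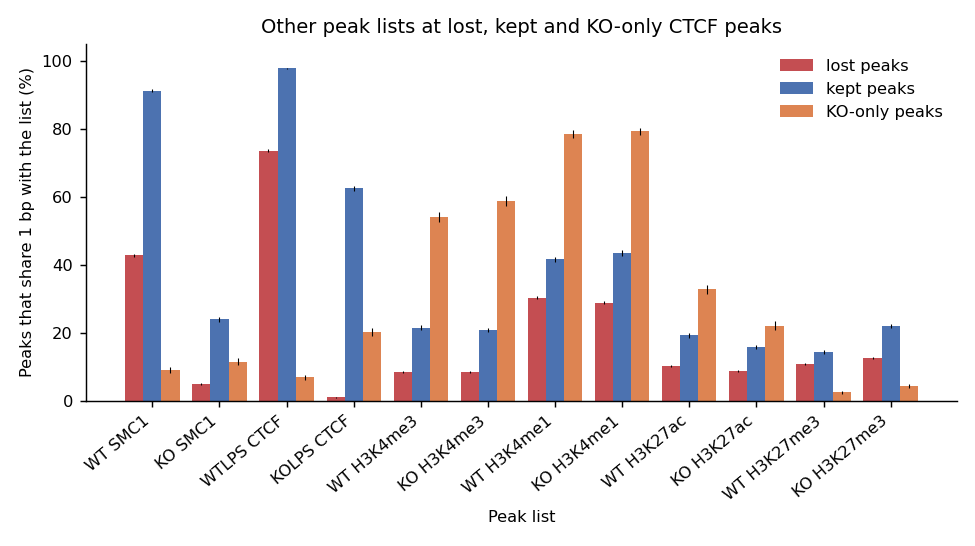
Percentage of lost, kept and KO-only CTCF peaks (vertical axis) that share at least 1 bp with a peak of each other list (horizontal axis); bars start at 0 and error bars are 95% Wilson intervals. WT SMC1 is most frequent at kept peaks (91.3%), and H3K4me3 and H3K4me1 at KO-only peaks (58.7% and 79.3% in KO).

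The CTCF motif was found at 28.0% (27.2 to 28.7%) of kept peaks, 23.1% (22.7 to 23.5%) of lost peaks and 0.277% (0.162 to 0.473%) of KO-only peaks. The matrix was a strict one: even in strength group 10 only 1923 of 6054 WT peaks had a match. A missing match therefore does not show that a motif was absent. The matrix was built from 12699 matches, of which 5683 lay at summits outside soft-masked sequence. Of the 4694 KO-only peaks 13 carried it, a share below the 0.868% of windows 1 kb away from KO summits. Kept and lost peaks differed most outside repeats. Outside soft-masked sequence 26.1% of kept and 10.7% of lost peaks carried the motif, and within it 36.5% and 39.2%. Lost summits lay in soft-masked sequence in 43.5% (43.1 to 44.0%) of cases and kept summits in 18.1% (17.5 to 18.7%). With a matrix rebuilt from its own matches the order was reversed, at 11.4% of kept and 20.7% of lost peaks. The GC content within 100 bp of the summit had a median of 45.3% at kept, 41.3% at lost and 32.3% at KO-only peaks, with quartiles of 28.4 and 36.3% for the last.

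KO-only peaks were promoter-proximal, weak and narrow. Their median fold was 4.56, against 6.33 for the KO peaks shared with WT, and their median width was 365 bp against 448 bp. A promoter was overlapped by 55.8% (54.4 to 57.3%) of KO-only, 27.7% (27 to 28.4%) of kept and 18% (17.7 to 18.4%) of lost peaks. Wider peaks reach a promoter more easily, and the median width was 1443 bp for kept and 529 bp for lost peaks. By summit, 13.6% of KO-only, 11.2% of kept and 7.37% of lost peaks lay within 1000 bp of a start site. The median distance from summit to the nearest start site was 2358 bp for KO-only, 9157 bp for kept and 11410 bp for lost peaks. The KO-only summits were not centred on start sites. They lay within 500 bp of one in 2.02% of cases, against 6.71% of kept peaks, and 1000 to 2500 bp away in 38.6% of cases (37.2 to 40%), against 11.8% and 8.82% of kept and lost peaks. Of the 3432 KO-only summits within 5 kb of a start site 74.5% lay downstream of it, whereas 44.9% of kept and 46.7% of lost summits did. Introns held 70.2% of KO-only, 46.1% of kept and 53.9% of lost summits.

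**Figure D4:**
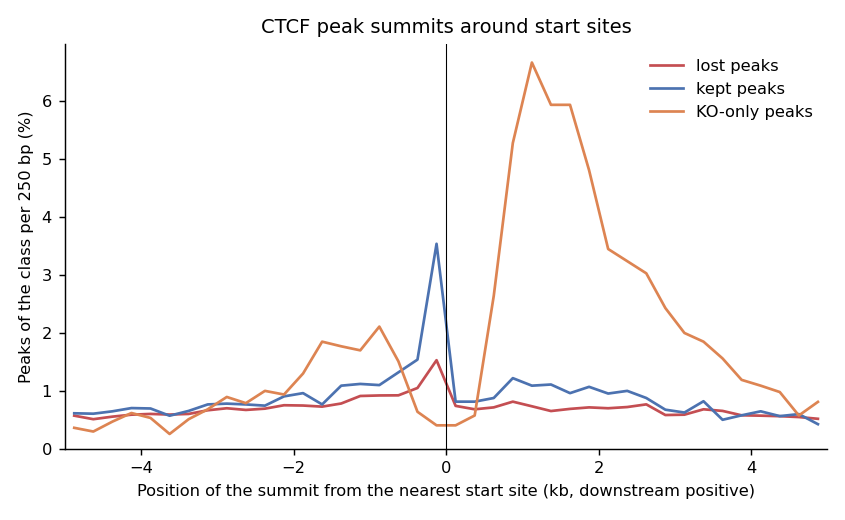
Percentage of lost, kept and KO-only CTCF peaks (vertical axis) whose summit lies in each 250 bp step from the nearest gene start (horizontal axis, kb, downstream positive). Kept peaks have their maximum at the start site, and KO-only peaks have theirs 1 to 2 kb downstream of it, with a gap at the start site itself.

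H3K4me3 and H3K4me1 peaks each lay over most KO-only peaks and were already present in WT. H3K4me3 was found at 54.1% (52.7 to 55.6%) in WT and 58.7% (57.3 to 60.1%) in KO, and H3K4me1 at 78.5% and 79.3%. These shares were 21.5% and 41.6% at kept and 8.46% and 30.3% at lost peaks in WT. H3K4me3 in WT lay at 81.8% of KO-only peaks at promoters and at 19.1% of those outside promoters. H3K27ac was found at 32.8% of KO-only peaks in WT and 22.1% in KO, at 19.2% (18.5 to 19.8%) of kept and 10.3% (10 to 10.6%) of lost peaks in WT. When the CTCF summit itself had to lie inside the H3K27ac peak, the shares of kept and lost peaks were 6.61% and 6.20%, with intervals that overlapped. H3K27me3, a mark of Polycomb repression, was found at 2.39% of KO-only peaks in WT and 4.30% in KO.

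Apart from 2 peaks in the chromosome 9 stretch named above, strong KO-only promoter peaks lay at Anln, which encodes the cytokinesis scaffold anillin (chromosome 9, 22385797 to 22388254, fold 12.2) and Pot1a, a telomere protection gene (chromosome 6, 25807745 to 25809063, fold 11.1). Both summits lay in introns at promoters with H3K4me3 in both genotypes. Each also had a CTCF peak in WTLPS and in KOLPS.

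The strongest KO-only peaks outside promoters lay among the variable segments of Igh, the immunoglobulin heavy chain locus, near Ighv1-55 and Ighv8-12 (fold 17.5 at each). Over the Igh segments (chromosome 12, 113254830 to 116010093) there were 162 WT and 250 KO CTCF peaks, and 191 of the KO peaks were KO-only (76.4%), against 22.6% of the KO peaks outside Igh. This locus was singled out after its values were seen. No motif match lay at these 191 peaks. KO SMC1 lay at 165 of them and WT SMC1 at 8. The excess was not limited to CTCF and cohesin, since KO STAT5 lay at 110 and WT STAT5 at 0, and KO H3K27me3 at 120 and WT H3K27me3 at 10. The STAT5 lists of both genotypes came from cells restimulated with GM-CSF, unlike the other lists. At the other antigen receptor loci KO-only peaks were few, with 2 of 10 KO peaks at Igk, 0 of 17 at Tcra and Tcrd and 1 of 11 at Tcrb. Without Igh, 56.1% of KO-only peaks overlapped a promoter, 61.0% had KO H3K4me3 and 17.9% had a KOLPS CTCF peak. The part of the other KO lists in the Igh peaks was not tested.

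At the level of genes, 11828 of 55413 annotated genes had a WT CTCF peak at the promoter, and 7151 of these had no KO peak there (60.5%). The rule for genes differed from that for peaks. A gene counted as kept when any KO peak lay at its promoter and as lost when none did, so overlap of the WT and KO peaks was not required. The folds given for a gene are those of the strongest peak of each list at its promoter, which need not be partners. A KO promoter peak was present at 6448 genes, of which 1771 had none in WT (27.5%). Protein-coding genes with WT H3K4me3 had a KO peak more often (48.4%, 47.0 to 49.7%, of 5213 genes with a WT peak) than those without it (26.1%, 23.7 to 28.6%, of 1251 genes). Of the 1332 protein-coding genes whose promoter had only a KO peak, 1315 had WT H3K4me3. LincRNA genes (40.2% with a KO peak) and antisense genes (38.0%) had intervals that overlapped the 39.5% of all genes.

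Genes of the CTCF and cohesin machinery had a WT promoter peak in 10 of 16 cases, of which 6 were kept and 4 were lost. The cohesin ring subunit gene Smc3 kept its peak (fold 19.6 in WT and 7.60 in KO), as did the acetyltransferase gene Esco1 (13.9 and 5.06) and the cohesin regulator gene Pds5a (11.2 and 5.82). Ctcf itself, the cohesin loader gene Mau2 (fold 6.33) and Esco2 (5.70) lost theirs. Wapl, which encodes the factor that releases cohesin from DNA, had no WT peak and 2 KO peaks (highest fold 5.57). Ribosomal protein genes, which are expressed in all cells, had a WT peak in 45 of 77 cases, with 22 kept and 23 lost. Rps29 (57.6 and 18.2), Rps28 (36.5 and 9.87) and Rpl35 (32.1 and 6.33) were among the kept and Rpl3 (21.7), Rpl7a (20.8) and Rpl41 (17.3) among the lost. The share lost in these lists is to be read beside that of protein-coding genes, where 3616 of 6464 with a WT peak lost it. Among protein-coding genes with WT H3K4me3 the count was 2691 of 5213. The 60.5% of all genes with a WT peak also covers other gene types.

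Among all protein-coding genes with a WT promoter peak, 3616 of 6464 lost it, and the lists here are to be read beside that share. Transcription factor genes of the myeloid and dendritic lineages had a WT promoter peak in 9 of 18 cases, and 4 of these were lost. The lost ones included Klf4 (fold 15.4), Batf3 (11), needed for cross-presenting dendritic cells, and Cebpb (6.12). The kept ones included Cebpe (19.4 in WT, 10.4 in KO) and Nfil3 (19 and 7.60), and Tcf4 (5.32) and Zeb2 (4.56) had a KO peak alone. Among antigen presentation genes 8 of 22 had a WT peak and 4 were lost, the named ones all on chromosome 17. H2-Ab1 (15.0) and H2-Aa (10.3), which encode the I-A chains, and H2-Oa (10.2) lost their peaks, while H2-DMa (39.7 and 16.7), H2-Ob (27.4 and 4.05) and Tapbp (15.4 and 4.05) kept theirs.

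For comparison, 3616 of 6464 protein-coding genes with a WT promoter peak lost it. In GM-CSF and JAK-STAT signalling, 13 of 21 genes had a WT promoter peak and 7 lost it (46.2% kept, 23.2 to 70.9%). The lost ones included the receptor gene Flt3 (16.0), the phosphatase gene Ptpn6 (13.5) and the kinase gene Tyk2 (9.71). Jak2, the kinase of the GM-CSF receptor, kept its peak (21.1 and 6.58), as did the feedback inhibitors Cish (22.6 and 9.11) and Socs3 (17.9 and 11.6). Jak1 had a KO peak alone, with a fold of 4.56. In TLR and NF-κB signalling, 13 of 32 genes had a WT peak and 7 lost it, among them Nfkb2 (14.1), Tlr3 (12.5) and Traf3 (7.60). The inhibitor genes Nfkbia (29.1 and 6.33) and Tnfaip3 (18.4 and 10.4) and the adaptor kinase gene Irak2 (26.6 and 10.9) kept theirs, and Map3k7 (5.06), Chuk (4.81) and Irak4 (4.30) had KO peaks alone.

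The counts of this paragraph, too, are to be read beside the 3616 of 6464 protein-coding genes that lost a WT promoter peak. Of 29 LPS-induced genes for cytokines, chemokines and enzymes, 11 had a WT promoter peak before stimulation and 6 lost it. Ifnb1 (12.7), Cxcl2 (9.50) and Ptgs2 (7.39) were among the lost, and Il6 (23.2 and 4.30), Il12b (17.3 and 6.08) and Nos2 (16.9 and 8.10) among the kept. Cell cycle and growth genes had a WT peak in 10 of 22 cases, and 3 were lost, namely Mycn (12.9), Mdm2 (8.23) and Ccnb1 (5.28). Trp53 (33.8 and 17.2), Cdkn2c (29.3 and 11.6) and Ccnd1 (23.4 and 7.60) kept theirs, and the proliferation genes Mki67 (8.86) and Pcna (7.85) had a KO peak alone. Of 25 imprinted genes 6 had a WT peak and 4 were lost, including Cdkn1c (11), Meg3 (6.75) and Magel2 (5.49), while Zrsr1 (22 and 9.11) and H19 (16.7 and 4.92) kept theirs. Of 39 Hox genes 12 had a WT peak and 8 had no KO peak at the promoter, including Hoxa13 (32.3), Hoxc5 (14.8) and Hoxa3 (10.1). Hoxa13 was lost by the rule for genes and not by overlap. Its WT peak was not among the strongest lost promoter peaks, although its fold exceeded that of Ttc5 (29.1). Hoxd8 (34.4 and 17.2), Hoxa7 (12.5 and 10.4) and Hoxb6 (12.2 and 4.30) were kept. Aldh1a2 (6.81) and Chst3 (5.28), a further list of 2 genes, each lost their 1 promoter peak.

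Lost peaks did not adjoin each other more often than the overall share of lost peaks gives. After a lost peak the next WT peak along the chromosome was also lost in 76.1% (75.8 to 76.5%) of cases, and after a kept peak it was lost in 76.7% (76 to 77.3%). The shares depended on the distance between neighbours. Where summits lay up to 1 kb apart, the next peak was lost in 86.5% (85 to 87.8%) of cases after a lost peak and in 80.6% (76.3 to 84.3%) after a kept one. Where they lay 1 to 3 kb apart the order was the opposite, and the next peak was lost in 70.2% (69.2 to 71.1%) of cases after a lost peak and in 83.4% (82.0 to 84.7%) after a kept one. At 10 to 30 kb the shares were 76.6% and 74.7%.

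The lost peaks formed 11028 runs with a median of 3 peaks, and 1000 runs held 10 peaks or more, together 29.0% of lost peaks. Kept peaks formed 11014 runs, of which 8474 were of 1 peak. The longest runs of lost peaks held 50 peaks on chromosome X (150510464 to 153599989), with WT SMC1 at 23 of them and KO SMC1 at 0. The next held 49 peaks on chromosome 7 (58769928 to 63751187) across Ube3a, Snrpn, Ndn, Magel2 and Mkrn3, genes of the imprinted Prader-Willi and Angelman region, with folds up to 34.6. The third, with 46 peaks over 0.818 Mb of chromosome 18 (36929293 to 37747002), covered the clustered protocadherin genes, which encode neuronal cell adhesion proteins chosen by promoter. Of these 46 peaks 43 overlapped a promoter, 2 had WT SMC1 and 31 had a WTLPS CTCF peak, and their median fold was 4.85. A pair of further runs on chromosome X held 42 (13729496 to 20563127) and 37 peaks (60485070 to 71624231).

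Runs of kept peaks were short. The longest, with 15 peaks, lay on chromosome 9 (3000299 to 3038269), in the stretch with peaks in nearly all lists. Those with 13 and 9 peaks on chromosome 12 (115496526 to 115639301 and 115748936 to 115821938) lay in Igh. The remaining 2 each held 9 peaks, at Ppp1r26, Mrps2 and Gbgt1 on chromosome 2 (28417994 to 28517675, median WT fold 17.3) and at the interferon-induced guanylate-binding protein genes Gbp2, Gbp3, Gbp5 and Gbp7 on chromosome 3 (142474141 to 142675343, median WT fold 25.5).

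**Figure D5:**
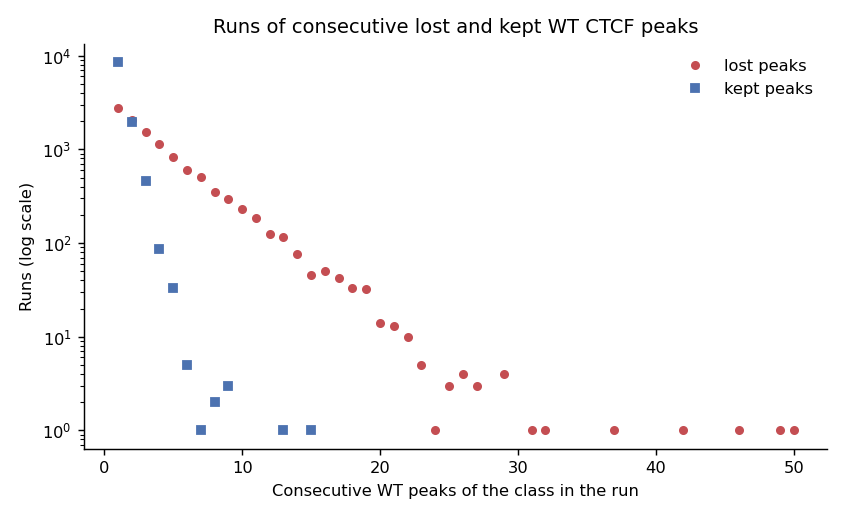
Number of runs (vertical axis, log scale) by the number of consecutive lost or kept WT CTCF peaks they hold (horizontal axis). Runs of lost peaks reach 50 peaks, and 8474 of the 11014 runs of kept peaks hold 1 peak.

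Chromosome X kept 15.7% (13.8 to 17.8%) of its 1247 peaks, against 22 to 25.9% on the autosomes. Few of its peaks were among the strongest, with 12 in strength group 10, all kept. They were not weaker in general, since their median WT fold was 7.39, against 6.33 to 7.36 on the autosomes. Within strength groups X did not lie below the autosomes throughout: in group 7 the shares were 21.2% on X and 11.9% on autosomes, in group 8 they were 41.2% (34.3 to 48.6%) and 39.1% (37.8 to 40.3%), and in group 9 they were 68.9% (57.7 to 78.3%) and 72.3%. Per the methods, WT controls were littermates of matched sex. The labels used here do not give the sex.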

How the data were processed

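CTCF ChIP-seq peak lists of unstimulated WT and KO BMDCs were compared, with lists of the other antibodies for description. Per the submitters' processing notes, the tools were BWA 0.7.12, Picard 1.77, MACS2 2.1.2 and deepTools 3.1.3, with other versions given in the methods; reads were aligned to mm10, duplicates removed and peaks called against input. The authors deposited a fold (a ratio, fragment pileup over background) and 2 significance values, p and q, as −log10, for every peak. The deposited lists also give the summit. Depth is not in the lists, and a background coverage was recovered from fold and p for peaks with −log10 p below 25, matched within 0.002 for 99.994% of peaks in each list. All ends lay within the GRCm38 chromosomes. Thresholds were alike, with a lowest −log10 p of 7.01 in WT and 7.00 in KO.

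From these values, overlaps, widths, summit distances to the 55413 GENCODE vM21 genes (start of the longest transcript), runs of consecutive peaks and motif matches (a matrix of 20 positions) were computed with Python 3.11.15, NumPy 2.4.6, pandas 2.3.3 and SciPy 1.17.1, and the code was checked on simulated peaks. A soft-masked summit is one in a repeat marked in the RefSeq sequence. Strength groups were 10 equal groups of WT peaks by −log10 p. With 1 list per condition no test was run. The members, gene lists and marker lists were chosen with earlier results of these data known. Named peaks were the 5 strongest of each class at protein-coding promoters and the 3 strongest elsewhere by −log10 q, the 5 highest and 3 lowest ratios of KO to WT fold among the 1000 strongest WT peaks, the 5 longest runs of lost and of kept peaks, and up to 3 lost, kept and KO-only genes of each list by fold. Sequences came from these peaks, outside chromosome 18. The p65 lists were not used. Some items that these rules name are not reported here.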

Additional observations from a re-analysis of the deposited data

How the results depend on the processing

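No paired analysis was possible because each condition had 1 list. Of 59 alternative values, 14 stayed within the 95% interval of the reported value, among them those with no place left out, with places in at least 22 of 26 lists left out, without chromosomes X and Y, and with the peak centre in place of the summit. The other 45 follow. With only peaks of −log10 p of at least 10, 24.4% of WT peaks were kept and 12.8% of KO peaks were KO-only; promoter shares were 19.6% of lost, 26.3% of kept and 71.7% of KO-only peaks, median widths 708, 1535 and 640 bp, and 32.8% of genes kept a promoter peak. With 50% of the peak covered by a single partner, 5.63% of WT peaks were kept, 25% of KO peaks were KO-only and 94.6% of lost peaks were followed by a lost one; KO peaks are narrower, so few WT peaks can be covered to this extent. With summits within 150 bp, 21.6% were kept and 35% were KO-only. With WT thinned to the KO background 26.8% were kept. With promoters of 1 kb the shares were 9.41% of lost, 17.1% of kept and 24.5% of KO-only peaks, and 34.1% of genes. With the start sites of all transcripts they were 27.2%, 36.6%, 64.3% and 42.5%, and the median distances 7236 bp for lost, 5841 bp for kept and 1864 bp for KO-only peaks. With protein-coding genes alone, 44.1% of genes kept a peak, and the distances were 22434, 17742 and 2814 bp. Outside promoters, where 37857 WT peaks were lost and 10387 were kept, 78.3% of lost peaks were followed by a lost one. With the CTCF summit inside the mark's peak, H3K27ac shares were 6.20% of lost, 6.61% of kept and 9.39% of KO-only peaks. For the motif, the exact seed gave 25.5% of lost and 32.4% of kept peaks, and a window of 25 bp gave 9.63% and 24.9%. The following alternatives were chosen after seeing the data: a matrix without soft-masked summits gave 25.3% and 36.7%, a threshold passed by 5% of windows gave 38.3% and 54.2%, with 1.56% of KO-only peaks, and a matrix rebuilt 5 times from its own matches gave 20.7% and 11.4%. The cause of that last change was not tested. KO-only peaks carried fewest motifs and overlapped promoters most often under every alternative run. Depth limits what a lost peak means: a site under the KO threshold is not listed, which does not show that CTCF was absent, and intervals leave out the spread between animals.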

Other observations

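The Igh peaks of KO cells were seen across antibodies. Of the 191 KO-only CTCF peaks at Igh, SMC1 peaks lay at 86.4% in KO and 77.5% in KOLPS, against 4.19% in WT and 1.57% in WTLPS. H3K27me3 lay at 62.8% in KO and 56.5% in KOLPS, against 5.24% and 1.57% in WT and WTLPS. H3K27ac lay at 23.0% in KO and 1.05% in WT, and H3K4me1 at 88.5% and 30.9%. At the KO-only peaks outside Igh, H3K4me1 lay at 78.9% in KO and 80.5% in WT and H3K27me3 at 1.82% and 2.27%. SMC1 lay there at 8.28% in KO and 9.24% in WT. The excess in KO seen at Igh in these lists was not seen outside it. H3K27ac outside Igh lay at 22.1% in KO and 34.1% in WT, a difference in the other direction. No cause was tested, and the 1 list per antibody and condition does not show whether the Igh peaks recur between animals.

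Lost peaks with WT SMC1 were not uniform at promoters. Of the 3904 lost promoter peaks with WT SMC1, 16.6% (15.4 to 17.8%) had KO SMC1, against 8.33% (7.91 to 8.77%) of the 15853 such peaks outside promoters. At kept peaks the shares were 32.1% and 23.5%.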
